A study of Mus musculus with 32 samples.

Results

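The transforming growth factor beta (TGF-β) genes described here are 9 genes chosen by name, of 41585 gene entries in each of 2 raw count tables from mouse liver. They are the ligands Tgfb1, Tgfb2 and Tgfb3, the receptors Tgfbr1 and Tgfbr2, the signal carrier Smad3, the inhibitors Smad7 and Bambi, and Thbs1, whose protein thrombospondin-1 can free the ligand from its latent form. All 9 were listed in both tables, and all 9 passed the low-count filter, among 13226 genes tested in females and 13460 in males. TGF-β is secreted bound to a latency peptide and held in the matrix until it is activated. The active ligand binds TGFBR2, which recruits and phosphorylates TGFBR1, and TGFBR1 phosphorylates SMAD2 and SMAD3, which enter the nucleus with SMAD4 and change transcription. In liver this pathway is known for driving stellate cells to become collagen-producing myofibroblasts, and SMAD7 and BAMBI act against the receptors.

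Liver RNA was sequenced from wildtype (WT) C57BL/6 mice and from mice of the same strain lacking Cyp2b9, Cyp2b10 and Cyp2b13 (Cyp2b-null), cytochrome P450 genes of the liver. Females and males of both genotypes, 10 weeks old at the start, were fed a normal chow diet (ND) or a choline-deficient, amino acid-defined high fat diet (CDAHFD) with 62% fat and 0.1% methionine for 8 weeks. The CDAHFD is used to bring on fatty liver with inflammation and fibrosis, and the comparisons ask how the 9 genes respond to that diet and whether the response depends on the missing Cyp2b genes or on sex. Each of the 8 groups had 4 libraries, 32 in all. WT mice were bought from a supplier and the null line was made with CRISPR/Cas9, so genotype and the source of the mice cannot be told apart. The labels do not say whether the 4 libraries of a group are 4 animals, so the p-values measure the spread between these libraries.

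Between 2906411 and 10166959 counts fell on genes per library. A floor of 3 counts, covering counting error only, corresponds to between 0.295 and 1.03 CPM (counts scaled to a library of 1000000), so the low levels of Tgfb2, Tgfb3 and of Thbs1 in ND-fed males rest on few reads. Of the targeted genes, Cyp2b13 had 0 to 1 counts in Cyp2b-null and at least 470 in WT females, and Cyp2b9 had at most 8 and at least 683. In males Cyp2b13 was near 0 in both genotypes and checks nothing. Cyp2b9 had 2 to 7 counts in CDAHFD-fed null and 118 to 364 in CDAHFD-fed WT males, and Cyp2b10 had 1 to 9 in ND-fed null and 33 to 97 in ND-fed WT males. All 6 hepatocyte markers were detected in every group, with summed levels from 52260 to 191000 CPM. Among the CDAHFD-fed Cyp2b-null females, replicate 3 stood apart from the other 3 for several of the 9 genes. Values without it are given beside results of Tgfbr1, Tgfbr2 and Thbs1. It was also the lowest of its group for Tgfb2 (1.08 CPM) and Smad3 (9.74 CPM). This library and replicate 4 of the CDAHFD-fed Cyp2b-null males are absent from the heat maps of the study, with no reason given, and all 32 libraries were used here.

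The stretches of 250 bases before the transcription start of 4 of the genes are printed because they belong to a ligand that rose on the CDAHFD in all 4 comparisons (Tgfb1), a ligand that passed the threshold in Cyp2b-null mice of both sexes (Tgfb2), a receptor (Tgfbr2) and the one SMAD among the 9 that drives transcription (Smad3). They are from RefSeq on GRCm38.p6, at chr7:25686752-25687001 on the plus strand, chr1:186705990-186706239, chr9:116175364-116175613 and chr9:63757995-63758244 on the minus strand, in that order, and each reads 5′ to 3′ toward the gene. The Tgfb2 stretch adjoins the GENCODE start of the gene at base 186705989 and lies within its longer RefSeq span. Capitals mark 3 motifs searched on both strands. The first is CAGAC, a short sequence that SMAD proteins can bind. The second, GGGCGG, is known as a GC box. The last is the TATA box, searched as TATAAA.
Tgfb1: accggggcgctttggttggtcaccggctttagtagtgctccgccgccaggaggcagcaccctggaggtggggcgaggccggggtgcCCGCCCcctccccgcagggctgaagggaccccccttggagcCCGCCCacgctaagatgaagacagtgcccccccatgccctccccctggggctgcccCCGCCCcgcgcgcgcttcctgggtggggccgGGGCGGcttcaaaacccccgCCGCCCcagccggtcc
Tgfb2: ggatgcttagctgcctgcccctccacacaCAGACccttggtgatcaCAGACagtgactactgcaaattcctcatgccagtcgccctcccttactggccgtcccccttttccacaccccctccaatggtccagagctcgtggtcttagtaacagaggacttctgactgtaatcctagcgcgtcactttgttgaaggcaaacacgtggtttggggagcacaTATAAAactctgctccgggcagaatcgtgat
Tgfbr2: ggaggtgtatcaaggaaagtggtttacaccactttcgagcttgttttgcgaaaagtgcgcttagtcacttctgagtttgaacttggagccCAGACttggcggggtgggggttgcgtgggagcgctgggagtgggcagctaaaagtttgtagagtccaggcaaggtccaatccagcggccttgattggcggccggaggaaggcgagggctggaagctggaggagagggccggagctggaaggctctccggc
Smad3: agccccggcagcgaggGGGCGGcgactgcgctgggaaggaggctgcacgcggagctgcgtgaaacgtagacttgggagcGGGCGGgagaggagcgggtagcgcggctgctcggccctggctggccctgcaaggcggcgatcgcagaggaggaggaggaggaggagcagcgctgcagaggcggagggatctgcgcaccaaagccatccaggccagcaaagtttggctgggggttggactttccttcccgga
The Tgfb1 stretch held 5 GC boxes, no CAGAC and no TATAAA, with 75.2% G or C. The Tgfb2 stretch held 2 copies of CAGAC, the first bases of which lie 221 and 204 bases before the start, and a TATAAA 31 bases before it, with no GC box and 53.6% G or C. The Tgfbr2 stretch held 1 CAGAC and the Smad3 stretch 2 GC boxes. Of 32851 stretches of the same length before mouse genes, 42.2% held CAGAC, 32.7% GGGCGG and 12.4% TATAAA. None of the 4 held the AP-1 site TGACTCA, found in 4.46% of all stretches. The palindrome GTCTAGAC, in 0.167% of all stretches, was absent too. These are matches of letters only.

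Per kb of exon (GENCODE vM21 lengths), Tgfbr1 had the highest mean level of the 9 in all 8 groups, from 5.16 to 8.93 CPM per kb. Tgfbr2, Smad3, Smad7 and Tgfb1 took ranks 2 to 5 in every group. Tgfb2 was always 8th or 9th, with 0.0379 to 0.521 CPM per kb. Bambi, Tgfb3 and Thbs1 took the other ranks from 6 to 9, and Thbs1 ranged from 0.127 CPM per kb in ND-fed Cyp2b-null males to 1.95 CPM per kb in CDAHFD-fed WT females.

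**Figure D1:**
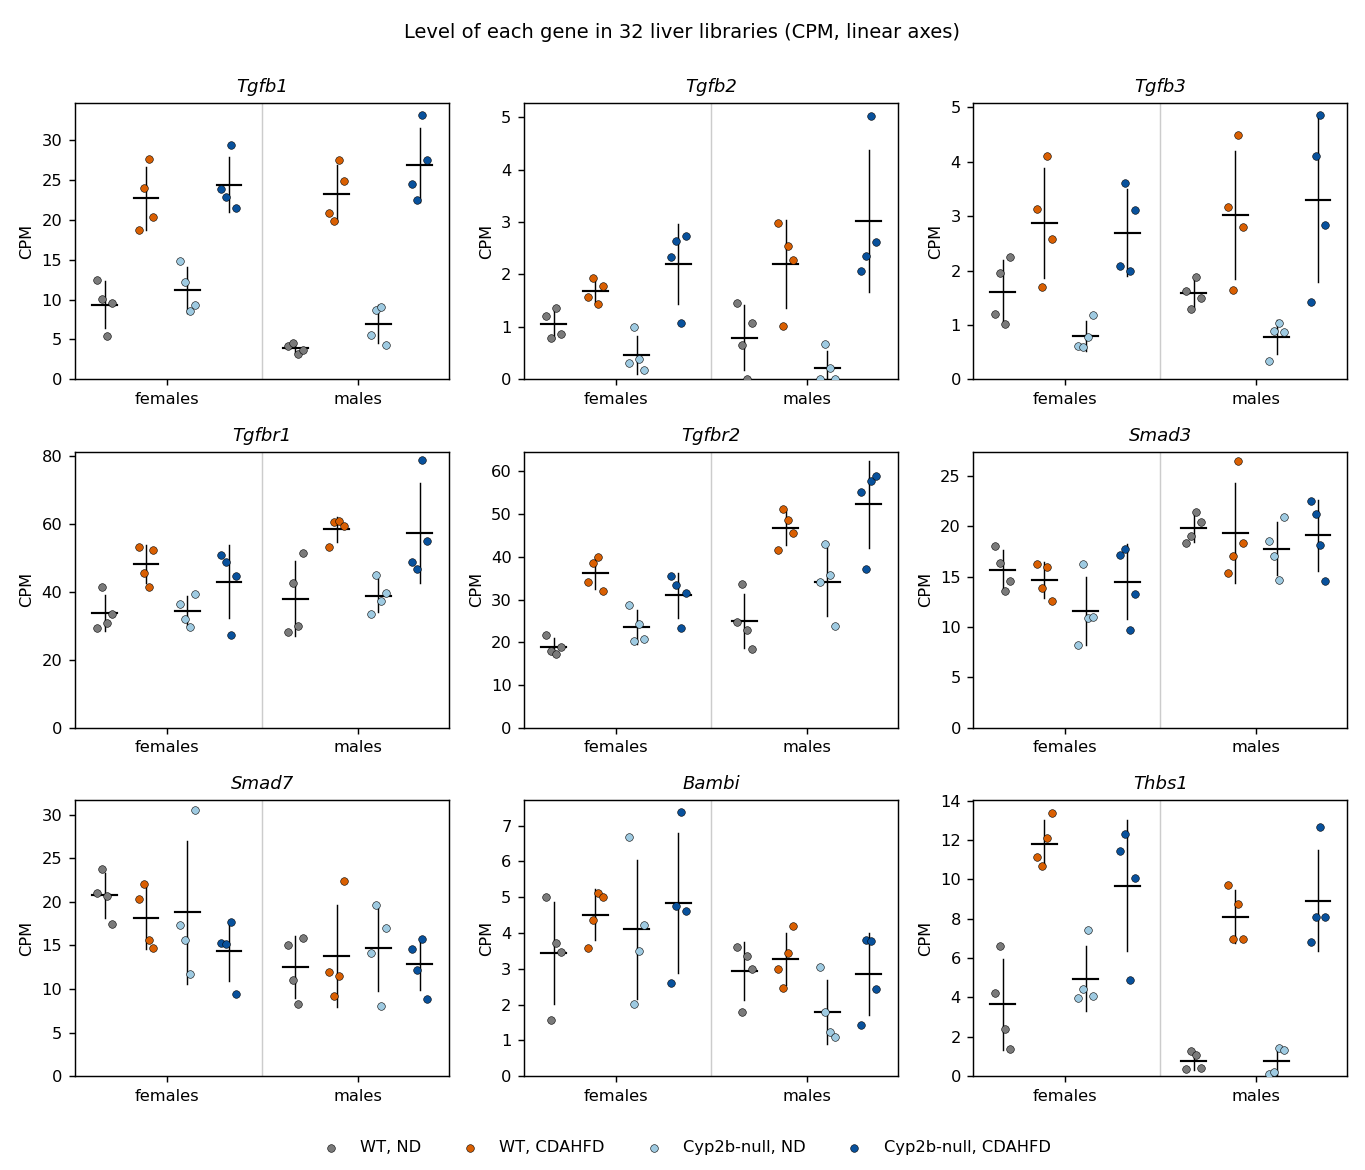
Level of each of the 9 genes in CPM (vertical axes, linear, from 0) in every library, females on the left and males on the right of each panel. Points are libraries, the horizontal line is the group mean and the vertical line is 1 SD each way, cut at 0. The CDAHFD-fed libraries lie above the ND-fed ones for Tgfb1 in both sexes, while the groups of Smad3, Smad7 and Bambi overlap.

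The CDAHFD was compared with the ND within each genotype and sex, with edgeR's quasi-likelihood test and p-values adjusted over all genes tested. A gene is called when its adjusted p is under 0.05. In WT females, 4 of the 9 genes were called higher (Tgfb1, Tgfbr1, Tgfbr2 and Thbs1), beside 13.9% of all genes tested. In Cyp2b-null females, 4 of 9 were called higher (Tgfb1, Tgfb2, Tgfb3 and Thbs1), beside 16.9% of all genes. In WT males, 4 of 9 were called higher (Tgfb1, Tgfbr1, Tgfbr2 and Thbs1), beside 18% of all genes. In Cyp2b-null males, 6 of 9 were called higher (the 3 ligands, both receptors and Thbs1), beside 20.3% of all genes. None of the 9 was called lower in any of these comparisons, where 10.2%, 13.9%, 15% and 17.1% of all genes were. Tgfb2 and Tgfb3 in both sexes, and Thbs1 in males, passed the low-count filter only through CDAHFD-fed libraries. That they were tested is thus not independent of the direction of their calls. Their calls above were kept in the fit without that filter. Counted by whether the 4 libraries of one diet were all above the 4 of the other, 5, 3, 4 and 5 of the 9 genes were higher in WT females, Cyp2b-null females, WT males and Cyp2b-null males, beside 14.6%, 16.3%, 15.9% and 19.8% of all genes. The median log2 change of the 9 genes was 0.67 in WT females, 0.41 in Cyp2b-null females, 0.90 in WT males and 0.62 in Cyp2b-null males, and that of all genes tested was -0.0022, 0.027, -0.023 and -0.0083. In bulk liver, a change in the number of cells of a type and a change of RNA per cell cannot be told apart.

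**Figure D2:**
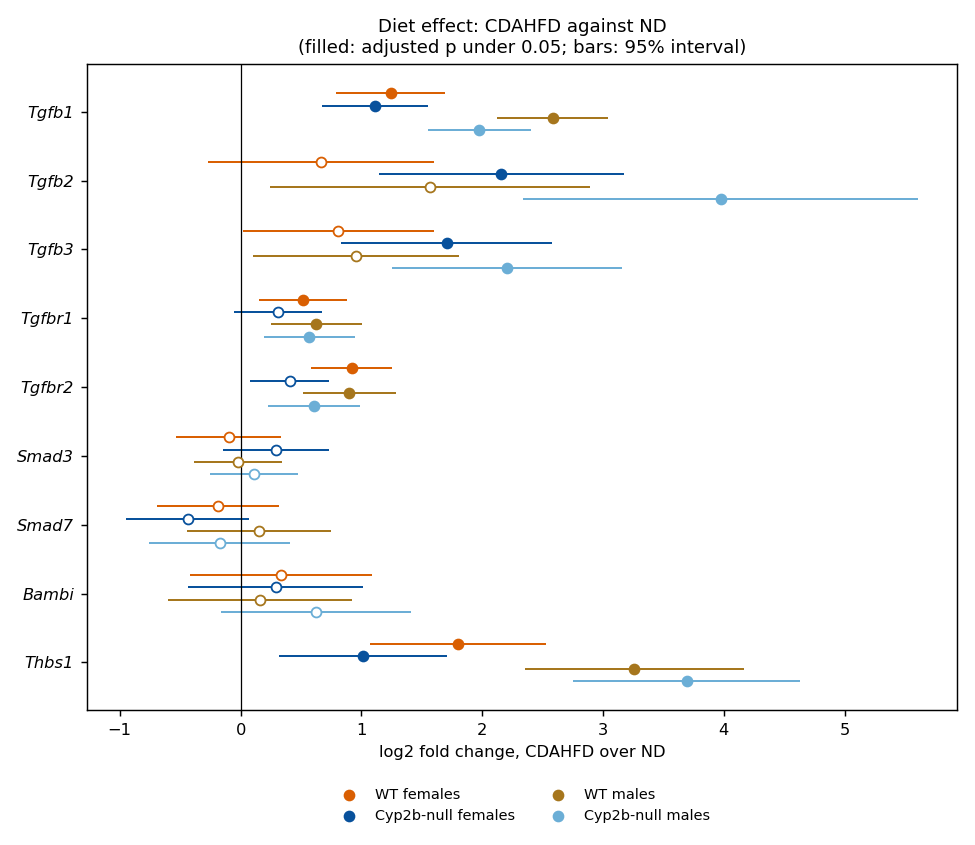
Log2 fold change of the 9 genes on the CDAHFD against the ND (horizontal axis) in 4 comparisons, with 95% intervals from the edgeR fit. Filled points have an adjusted p under 0.05. Tgfb1 and Thbs1 are filled in all 4 comparisons, and Smad3, Smad7 and Bambi in none.

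Tgfb1 (GRCm38.p6, chr7:25687002-25705077), the ligand of the family best known in liver fibrosis, rose on the CDAHFD in both sexes and both genotypes. In WT females its level was 12.4, 10.1, 5.42 and 9.52 CPM on the ND and 18.7, 24.0, 27.7 and 20.3 CPM on the CDAHFD, a log2 change of 1.24 (SE 0.22, adjusted p = 0.000206). In Cyp2b-null females it was 14.9, 12.2, 8.58 and 9.28 CPM on the ND and 23.9, 22.9, 29.4 and 21.5 CPM on the CDAHFD, a log2 change of 1.12 (SE 0.21, adjusted p = 0.000424). The diet groups did not overlap in females of either genotype. In WT males it was 4.16, 4.55, 3.23 and 3.65 CPM on the ND and 20.9, 19.9, 27.5 and 24.8 CPM on the CDAHFD, a log2 change of 2.58 (SE 0.22, adjusted p = 2.02e-08). In Cyp2b-null males it was 5.58, 8.72, 9.11 and 4.36 CPM on the ND and 24.5, 22.5, 33.1 and 27.5 CPM on the CDAHFD, a log2 change of 1.97 (SE 0.21, adjusted p = 1.94e-07). Every CDAHFD-fed male library was above every ND-fed male library, and the ND-fed WT males were the lowest group with the narrowest spread.

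Ordered by mean level, with the 2 tables scaled separately, the 4 CDAHFD-fed groups of Tgfb1 came first, from 26.9 ± 4.64 CPM (SD, n = 4) in Cyp2b-null males to 22.7 ± 4.00 CPM in WT females. Neighbors among these 4 differed by less than their spread. A gap of 11.4 CPM separated them from the ND-fed Cyp2b-null females at 11.2 ± 2.89 CPM. ND-fed WT females (9.37 ± 2.91 CPM) and ND-fed Cyp2b-null males (6.94 ± 2.34 CPM) followed within the spread, and ND-fed WT males were last at 3.90 ± 0.58 CPM, below their neighbor by more than the larger SD.

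Tgfb2 (chr1:186622787-186709697), a second ligand and here the one with the fewest reads, was called higher in Cyp2b-null mice of both sexes and in WT mice of neither. In Cyp2b-null females it was 0.303, 1.0, 0.390 and 0.169 CPM on the ND and 2.34, 2.63, 1.08 and 2.74 CPM on the CDAHFD, a log2 change of 2.16 (SE 0.49, adjusted p = 0.00214). The diet groups did not overlap, and the ND-fed group held 8 counts in all against 53. Without ND-fed Cyp2b-null female replicate 2, which held 5 of those 8 counts, the log2 change was 2.98. Tgfb2 passed the low-count filter in 14 of the 16 female fits without 1 library. In these its change in Cyp2b-null females ran from 1.77 to 2.98 and was called each time. In Cyp2b-null males the counts were 0, 3, 1 and 0 on the ND and 13, 23, 61 and 13 on the CDAHFD, or 0, 0.671, 0.207 and 0 against 2.06, 2.36, 5.02 and 2.63 CPM. The fitted log2 change of 3.97 (SE 0.78, adjusted p = 0.0004) therefore rests on 4 counts in the ND-fed group, all of whose libraries were at or under the floor. It was 3.33 without ND-fed Cyp2b-null male replicate 1 and 5.40 without replicate 2, and it stayed called in both.

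In WT females Tgfb2 was 1.2, 0.779, 1.36 and 0.866 CPM on the ND and 1.56, 1.94, 1.43 and 1.77 CPM on the CDAHFD. These groups did not overlap, but the log2 change of 0.67 (95% interval -0.27 to 1.60) was not called, with an adjusted p of 0.315. In WT males it was 1.45, 0.650, 0 and 1.07 CPM on the ND and 2.99, 1.02, 2.53 and 2.27 CPM on the CDAHFD, a log2 change of 1.57 (SE 0.64, adjusted p = 0.0642) with overlapping groups. This last value was called in 5 alternatives, among them DESeq2 (adjusted p = 0.0356) and the fit without a low-count filter (adjusted p = 0.0232).

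Tgfb3 (chr12:86056743-86079041), the third ligand, had the same set of calls. In Cyp2b-null females it was 0.607, 0.601, 0.780 and 1.18 CPM on the ND and 2.08, 3.62, 1.98 and 3.11 CPM on the CDAHFD, a log2 change of 1.71 (SE 0.42, adjusted p = 0.00409). In Cyp2b-null males it was 0.328, 0.895, 1.04 and 0.872 CPM on the ND and 1.42, 4.10, 4.85 and 2.83 CPM on the CDAHFD, a log2 change of 2.21 (SE 0.46, adjusted p = 0.000647). Neither pair of groups overlapped, although CDAHFD-fed Cyp2b-null male replicate 1 lay close to the ND-fed range. In WT mice the groups overlapped and the changes were not called, at 0.81 in females (adjusted p = 0.134) and 0.96 in males (adjusted p = 0.0798). Without CDAHFD-fed WT male replicate 2, the lowest of its group, the change in males was 1.14 and was called (adjusted p = 0.0436). Scaled by library size alone, it was called in both sexes, at 1.12 in females (adjusted p = 0.029) and 1.35 in males (adjusted p = 0.0172), where the median of all genes was 0.317 and 0.371. WT libraries held 1.02 to 2.25 CPM on the ND and 1.64 to 4.49 CPM on the CDAHFD over both sexes. The exons of Tgfb3 share 163 and 257 bases with the unnamed genes Gm37804 and Gm48008 on the other strand, those of Tgfb2 share 124 with Gm29491 and those of Thbs1 share 208 with Gm29233. The library kit as named does not mark strand, so reads from these stretches cannot be told apart.

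Tgfbr1 (chr4:47353222-47414926), the type I receptor, rose by a similar small amount in 3 comparisons. In WT males it was 28.2, 42.4, 29.8 and 51.3 CPM on the ND and 53.0, 60.4, 60.8 and 59.2 CPM on the CDAHFD, a log2 change of 0.63 (SE 0.18, adjusted p = 0.0106). In Cyp2b-null males it was 33.5, 45.0, 37.3 and 39.7 CPM on the ND and 48.7, 46.5, 78.6 and 54.8 CPM on the CDAHFD, a log2 change of 0.57 (SE 0.18, adjusted p = 0.0169). In neither case did the groups overlap, though ND-fed WT male replicate 4 and CDAHFD-fed WT male replicate 1 were less than the group spread apart. In WT females it was 29.2, 41.3, 30.8 and 33.4 CPM on the ND and 53.1, 45.4, 41.4 and 52.2 CPM on the CDAHFD, a log2 change of 0.52 (SE 0.18, adjusted p = 0.0344). That call was lost when any 1 of 6 libraries was left out (ND-fed WT female replicates 1, 3 and 4 and CDAHFD-fed WT female replicates 1, 2 and 4), with adjusted p up to 0.111. In Cyp2b-null males it was lost without ND-fed replicate 1 (adjusted p = 0.0573) and without CDAHFD-fed replicate 3 (adjusted p = 0.113).

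In Cyp2b-null females Tgfbr1 was 36.4, 32, 29.6 and 39.3 CPM on the ND and 50.9, 48.8, 27.2 and 44.7 CPM on the CDAHFD. Replicate 3 of the CDAHFD-fed group was below every ND-fed library and the other 3 above them, and the log2 change of 0.31 was not called (adjusted p = 0.185). Without that library it was 0.47 (adjusted p = 0.0139), and scaled by library size alone it was 0.58 (adjusted p = 0.0207), where the median of all genes was 0.282.

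Tgfbr2 (chr9:116087695-116175363), the type II receptor that binds the ligand first, rose in the same 3 comparisons. In WT females it was 21.8, 17.9, 17.3 and 18.9 CPM on the ND and 34.1, 38.6, 40.0 and 32.1 CPM on the CDAHFD, a log2 change of 0.92 (SE 0.16, adjusted p = 0.000205). Among WT males it was 24.8, 33.7, 22.9 and 18.5 CPM on the ND and 41.6, 51.2, 48.7 and 45.6 CPM on the CDAHFD, a log2 change of 0.90 (SE 0.19, adjusted p = 0.000766). The WT diet groups stood clear of each other in both sexes. In Cyp2b-null males it was 34.1, 42.9, 35.8 and 23.8 CPM on the ND and 55.2, 37.2, 57.7 and 58.8 CPM on the CDAHFD, a log2 change of 0.61 (SE 0.18, adjusted p = 0.0116). These groups overlapped through CDAHFD-fed replicate 2, and the call was lost without ND-fed replicate 4 (adjusted p = 0.0515). In Cyp2b-null females it was 28.8, 20.2, 24.2 and 20.8 CPM on the ND and 35.6, 33.4, 23.4 and 31.5 CPM on the CDAHFD, a log2 change of 0.41 that narrowly missed the threshold (adjusted p = 0.054). CDAHFD-fed replicate 3 was again the low library, and without it the log2 change was 0.52 (adjusted p = 0.00867). It was also called without ND-fed replicate 1, the highest of that group (adjusted p = 0.0261), and with scaling by library size alone (0.67, adjusted p = 0.00533).

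Smad3 (chr9:63646766-63757994), a SMAD that the receptors activate, was not called in any diet comparison. Its levels ran from 8.19 to 18 CPM in ND-fed and from 9.74 to 17.8 CPM in CDAHFD-fed females, and from 14.7 to 21.4 CPM in ND-fed and 14.5 to 26.5 CPM in CDAHFD-fed males. The log2 change was -0.10 in WT females (95% interval -0.53 to 0.34), 0.29 in Cyp2b-null females (-0.15 to 0.73), -0.023 in WT males (-0.39 to 0.34) and 0.11 in Cyp2b-null males (-0.26 to 0.47). The groups overlapped in all 4 comparisons, and the intervals leave room for a rise of up to 0.73. Over the fits without 1 library, the change in Cyp2b-null females ran from 0.16 to 0.51 and was not called (lowest adjusted p = 0.0955).

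Smad7, an inhibitory SMAD that SMAD signaling itself induces, was not called either. Its levels ran from 11.7 to 30.5 CPM in ND-fed and 9.45 to 22.1 CPM in CDAHFD-fed females, and from 8.07 to 19.7 CPM and 8.89 to 22.4 CPM in males. The log2 change was -0.19 in WT females (95% interval -0.69 to 0.32), -0.44 in Cyp2b-null females (-0.95 to 0.068), 0.15 in WT males (-0.44 to 0.74) and -0.17 in Cyp2b-null males (-0.76 to 0.41). The highest library of all, ND-fed Cyp2b-null female replicate 4 at 30.5 CPM, was in an ND-fed group.

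Bambi, a decoy receptor that lacks a kinase, had 1.09 to 6.68 CPM on the ND and 1.42 to 7.39 CPM on the CDAHFD over both sexes. Its log2 changes of 0.34, 0.29, 0.16 and 0.62 in WT females, Cyp2b-null females, WT males and Cyp2b-null males were not called, with adjusted p from 0.211 to 0.776. The widest interval, in Cyp2b-null males, ran from -0.16 to 1.41, so a rise of the size measured for Tgfbr2 lies within it. Scaled by library size alone, the change there was 1.02 and was called (adjusted p = 0.0479), where the median of all genes was 0.365.

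Thbs1 (chr2:118111876-118127133) rose with the CDAHFD in all 4 comparisons and had the largest change of the 9 genes in WT mice of both sexes. In WT males it was 0.362, 1.30, 1.08 and 0.429 CPM on the ND and 9.70, 6.96, 8.75 and 6.99 CPM on the CDAHFD, a log2 change of 3.26 (SE 0.43, adjusted p = 6.12e-06). Among Cyp2b-null males it was 0.109, 0.224, 1.45 and 1.31 CPM on the ND and 6.80, 8.10, 12.7 and 8.08 CPM on the CDAHFD, a log2 change of 3.69 (SE 0.45, adjusted p = 1.62e-06). No ND-fed male library held more than 8 counts of Thbs1, and every CDAHFD-fed male library held at least 34. In WT females it was 4.20, 6.62, 2.37 and 1.39 CPM on the ND and 11.2, 10.7, 12.1 and 13.4 CPM on the CDAHFD, a log2 change of 1.80 (SE 0.35, adjusted p = 0.000633). In Cyp2b-null females it was 3.95, 4.41, 7.41 and 4.05 CPM on the ND and 11.4, 12.3, 4.87 and 10.1 CPM on the CDAHFD, a log2 change of 1.01 (SE 0.33, adjusted p = 0.0254). Only in Cyp2b-null females did the groups overlap, through ND-fed replicate 3 and CDAHFD-fed replicate 3.

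Without CDAHFD-fed replicate 3 the log2 change of Thbs1 in Cyp2b-null females was 1.24 (adjusted p = 0.00442). The call was lost when any 1 of 5 other libraries was left out (ND-fed Cyp2b-null female replicates 1, 2 and 4 and CDAHFD-fed Cyp2b-null female replicates 1 and 2), with adjusted p up to 0.0783. By mean level, with the 2 tables scaled separately, neighbors among the 4 CDAHFD-fed groups of Thbs1 (8.10 to 11.8 CPM) differed by less than the spread. The lowest of them, WT males, lay 3.15 CPM above the next group. That gap was more than the larger SD, although the libraries of these 2 groups overlapped. ND-fed females followed at 4.95 ± 1.65 CPM (Cyp2b-null) and 3.65 ± 2.30 CPM (WT), and ND-fed males at 0.79 ± 0.47 CPM (WT) and 0.77 ± 0.70 CPM (Cyp2b-null) were below the females by more than the larger SD.

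The next question was whether the genotypes differed on either diet. In Cyp2b-null against WT mice on the ND, none of the 9 genes was called by edgeR in females (0 with an unadjusted p under 0.05, and 0 called by DESeq2), beside 0.0756% of all genes called in either direction. In ND-fed males none was called (3 with an unadjusted p under 0.05, 0 by DESeq2), beside 0.0371% of all genes. On the CDAHFD none was called in females or males (0 with an unadjusted p under 0.05 in each, 0 by DESeq2), beside 0.0227% and 0.0297% of all genes. The number of genes called for genotype was thus small in each of these edgeR comparisons, though larger in some alternatives given at the end. A member that misses the threshold here is not shown to be alike in the genotypes.

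The 3 genes with an unadjusted p under 0.05 in ND-fed males were Tgfb1, Tgfb3 and Tgfbr2. The mean of Tgfb1 was 3.90 CPM in WT and 6.94 CPM in null males, a log2 difference of 0.81 (95% interval 0.31 to 1.32, unadjusted p = 0.0031, adjusted p = 0.302). In all, 3 of the 4 null libraries were above all WT libraries. Tgfb3 was lower in all 4 null libraries (0.328 to 1.04 CPM) than in all 4 WT libraries (1.30 to 1.89 CPM), with a log2 difference of -1.12 (95% interval -2.17 to -0.059, adjusted p = 0.579), and 2.01% of all genes were lower with no overlap in this comparison. Tgfbr2 differed by 0.45 (adjusted p = 0.533). In ND-fed females the differences nearest to these were in the same 2 low ligands, -1.09 for Tgfb2 (0.466 against 1.05 CPM, adjusted p = 0.879) and -0.97 for Tgfb3 (0.792 against 1.60 CPM, adjusted p = 0.877), with overlapping groups. Tgfb2 in ND-fed males differed by -1.94 on 4 against 17 counts (adjusted p = 0.627).

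By overlap of the libraries on the ND, the 1 gene set apart was Tgfb3 in males, while 1.88% of all genes were higher and 1.75% lower with no overlap in females, and 1.86% higher in males. On the CDAHFD all 9 genes overlapped between the genotypes in both sexes, where 1.48% of all genes were higher and 1.35% lower with no overlap in females, and 1.14% and 1.42% in males. The log2 differences lay between -0.34 for Smad7 and 0.40 for Tgfb2 in females, and between -0.16 for Bambi and 0.47 for Tgfb2 in males. The means of Tgfb1 were 22.7 CPM (WT) and 24.4 CPM (null) for females, and 23.3 and 26.9 CPM for males. The largest upper bounds of the 95% intervals were 1.18 and 1.54, both for Tgfb2.

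**Figure D3:**
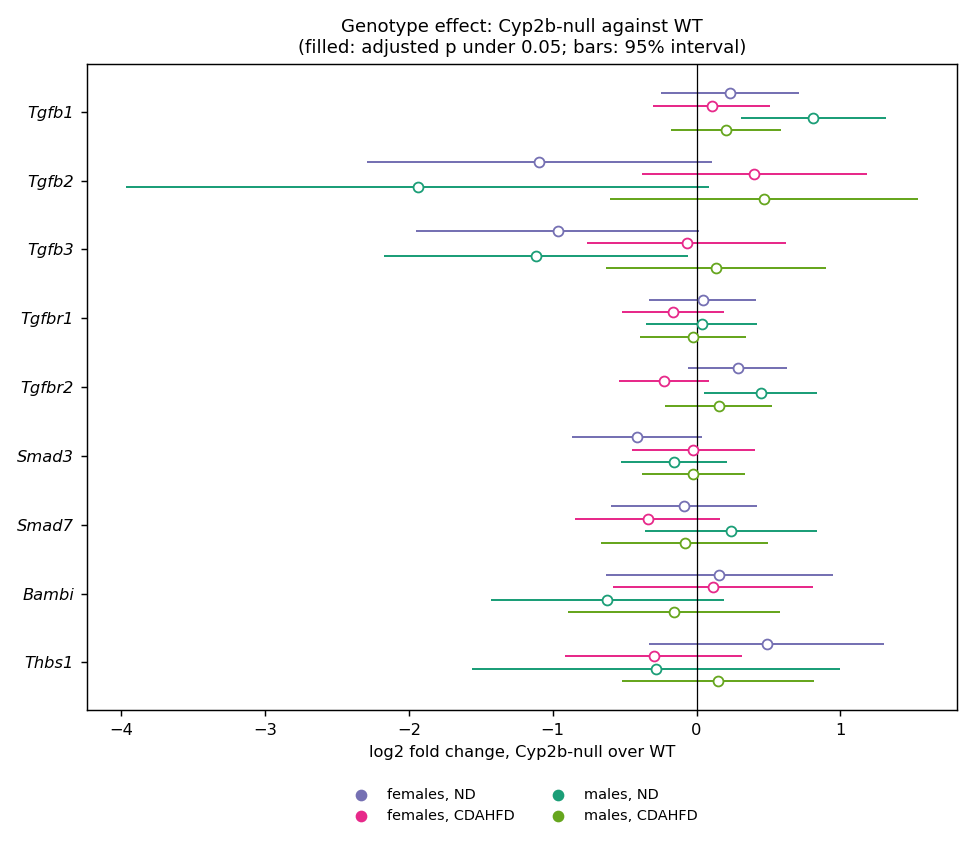
Log2 fold change of the 9 genes in Cyp2b-null against WT mice (horizontal axis) within each sex and diet, with 95% intervals from the edgeR fit. No point is filled, since no adjusted p was under 0.05, and the widest interval of each comparison belongs to Tgfb2, the gene with the fewest reads.

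Whether the diet response itself depended on genotype was tested as the genotype by diet interaction. None of the 9 was called in females (2 with an unadjusted p under 0.05, 0 by DESeq2), beside 0% of all genes, and none in males (1 with an unadjusted p under 0.05, 0 by DESeq2), beside 0.00743% of all genes. For Tgfb2 the interaction was 1.49 in females (95% interval 0.064 to 2.92, adjusted p = 0.76) and 2.40 in males (0.11 to 4.70, adjusted p = 0.819), and for Tgfb3 it was 1.25 in males (-0.051 to 2.55, adjusted p = 0.822). For Tgfbr2 in females it was -0.51 (-0.98 to -0.046, adjusted p = 0.76). So although Tgfb2 and Tgfb3 passed the threshold for diet in Cyp2b-null and not in WT mice with TMM scaling, a difference between the genotypes in that response was not shown, and the WT side of those calls changed with the alternatives given above.

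The diet effect was then compared between the sexes in 1 fit to all 32 libraries, in which 14020 genes were tested. In WT mice the rise of Tgfb1 was larger in males than in females by 1.36 on the log2 scale (95% interval 0.71 to 2.01, adjusted p = 0.026), the 1 called of the 9, beside 0.97% of all genes called in either direction. The CDAHFD-fed WT levels were close in the sexes, at 22.7 and 23.3 CPM, and the ND-fed levels were 9.37 CPM in females and 3.90 CPM in males. The call was lost when any 1 of 5 libraries was left out (ND-fed WT female replicate 1, CDAHFD-fed WT female replicate 1, ND-fed WT male replicate 3 and CDAHFD-fed WT male replicates 3 and 4), with adjusted p up to 0.0894. In Cyp2b-null mice the same difference was 0.88 (95% interval 0.27 to 1.49, adjusted p = 0.0938) and was not called.

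In Cyp2b-null mice the rise of Thbs1 was larger in males than in females by 2.71 on the log2 scale (95% interval 1.49 to 3.93, adjusted p = 0.00888), the 1 called of the 9, beside 3.4% of all genes called in either direction. It was 2.50 (adjusted p = 0.0165) without CDAHFD-fed Cyp2b-null female replicate 3, and it was called in each fit that left out 1 library. The CDAHFD-fed Cyp2b-null levels of Thbs1 were 9.67 CPM in females and 8.91 CPM in males, in tables scaled separately. On the ND they were 4.95 CPM in females and 0.77 CPM in males, the latter on 15 counts in all. In WT mice the difference for Thbs1 had the same direction, at 1.48 (95% interval 0.26 to 2.70), and was not called (adjusted p = 0.323). For Tgfb2 in Cyp2b-null mice it was 1.81 (-0.34 to 3.97, adjusted p = 0.358). Of the 9 macrophage markers tested, 3 in WT and 5 in Cyp2b-null mice were likewise called for a higher log2 change in males. So were 0 and 3 of 7 endothelial and 0 and 1 of 10 stellate cell markers. In Cyp2b-null females 3 of 7 endothelial markers were called lower on the CDAHFD, so a higher change need not be a larger rise. The part of these cells in the differences of Tgfb1 and Thbs1 was not tested. The sex difference of the genotype effect was called for none of the 9 on either diet (0 with an unadjusted p under 0.05 and 0 by DESeq2 on each), beside 0.00713% of all genes on each.

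To place the 9 genes in their pathway, 69 other genes were grouped by role, of which 61 were tested in females and 62 in males. Of the 61, 22 were called higher and 2 lower on the CDAHFD in WT females and 22 and 9 in Cyp2b-null females. Of the 62, 29 were higher and 2 lower in WT males and 29 and 7 in Cyp2b-null males. Of all genes tested, 13.9%, 16.9%, 18% and 20.3% were called higher in these comparisons, in the same order. The shares called lower were 10.2%, 13.9%, 15% and 17.1%. The same shares stand beside the counts by role below, and a count near them is no result about its role. Listed genes too low on the ND for the low-count filter were tested only through CDAHFD-fed libraries, as with some of the 9. Counts of genes called higher are thus not independent of that filter. None of the 69 was called for genotype on either diet or for the genotype by diet interaction. In each sex the WT and null diet comparisons share no libraries, but the interaction and genotype comparisons reuse them.

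The target genes moved most. Of 18 tested, 11 were higher in WT females, 10 in Cyp2b-null females and 14 in males of each genotype, with medians of 1.85, 1.30, 1.83 and 2.25 on the log2 scale and at most 1 lower. In all, 10 were higher in all 4 comparisons. Col1a1, which encodes the main chain of type I collagen, went from 7.24 to 69.4 CPM in WT females, 4.19 to 72.4 CPM in Cyp2b-null females, 3.09 to 80.9 CPM in WT males and 6.64 to 105 CPM in Cyp2b-null males. Timp1, an inhibitor of matrix proteases, went from 0.130 to 5.87, 0.0501 to 8.01, 0.131 to 4.44 and 0.134 to 5.95 CPM in the same order. It passed the low-count filter only through CDAHFD-fed libraries. Cdkn1a, a cell cycle inhibitor, rose by 2.50, 4.18, 3.32 and 3.57 on the log2 scale. Of the target list, Col1a1 and Acta2 are also in the stellate cell list below, and Spp1 in the cholangiocyte list.

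Among the genes of latency and activation, 4, 5, 5 and 6 of 9 tested were higher in WT females, Cyp2b-null females, WT males and Cyp2b-null males, and 1 was lower, in Cyp2b-null females. Ltbp2, a matrix protein of the family that holds latent TGF-β, was higher in all 4, at 0.369 to 4.53, 0.681 to 3.70, 0.456 to 4.74 and 0.852 to 7.71 CPM. It too passed the low-count filter only through CDAHFD-fed libraries. Ltbp3, which binds the latent complex, rose by 1.02, 0.96, 1.66 and 1.34 on the log2 scale, and Itgb5, a subunit of an integrin that can activate it, by 0.60, 0.66, 0.60 and 0.68. Of the inhibitors and turnover genes, 4, 4, 5 and 5 of 10 were higher and 0, 2, 0 and 1 lower. Pmepa1, a target that dampens SMAD activation, rose by 1.61, 1.93, 1.64 and 1.98, and the proteoglycan genes Bgn and Dcn rose by 1.12 to 1.66 and by 0.60 to 1.32.

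Few of the receptors and SMADs outside the 9 were called. Of 9 co-receptors and related receptors, only Acvrl1, the receptor ALK1 that is mostly endothelial, was higher in any comparison. It was higher in all 4, by 1.22, 1.13, 1.45 and 1.71 on the log2 scale, from 2.93 to 3.48 CPM on the ND to 7.02 to 10.2 CPM on the CDAHFD, and 1, 2, 1 and 1 others were lower. These others were Acvr2a in 3 comparisons and Tgfbr3 in 2, with mean absolute log2 changes of 0.654 and 0.595 over the 4. Of the 6 other SMADs, 0 were called in WT mice, 1 was lower in Cyp2b-null females and 1 higher in Cyp2b-null males. Of the related ligands, 2 of 9 were higher and 1 and 2 lower in WT and Cyp2b-null females, and 4 and 2 of 10 were higher and 1 and 4 lower in WT and Cyp2b-null males. Gdf15, a distant member of the family released under stress, was higher in all 4, by 0.96, 1.15, 0.96 and 2.22. In the sex difference of the diet effect in Cyp2b-null mice, 3 genes were called with a higher log2 change in males than in females. These were Tgfbr3 (1.33, adjusted p = 0.0321), Tgfbi (0.77, adjusted p = 0.0269) and Postn (1.14, adjusted p = 0.0372). Tgfbr3 was called lower on the CDAHFD in Cyp2b-null females, so its difference is not a larger rise alone. None of the 69 was called for this difference in WT mice.

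**Figure D4:**
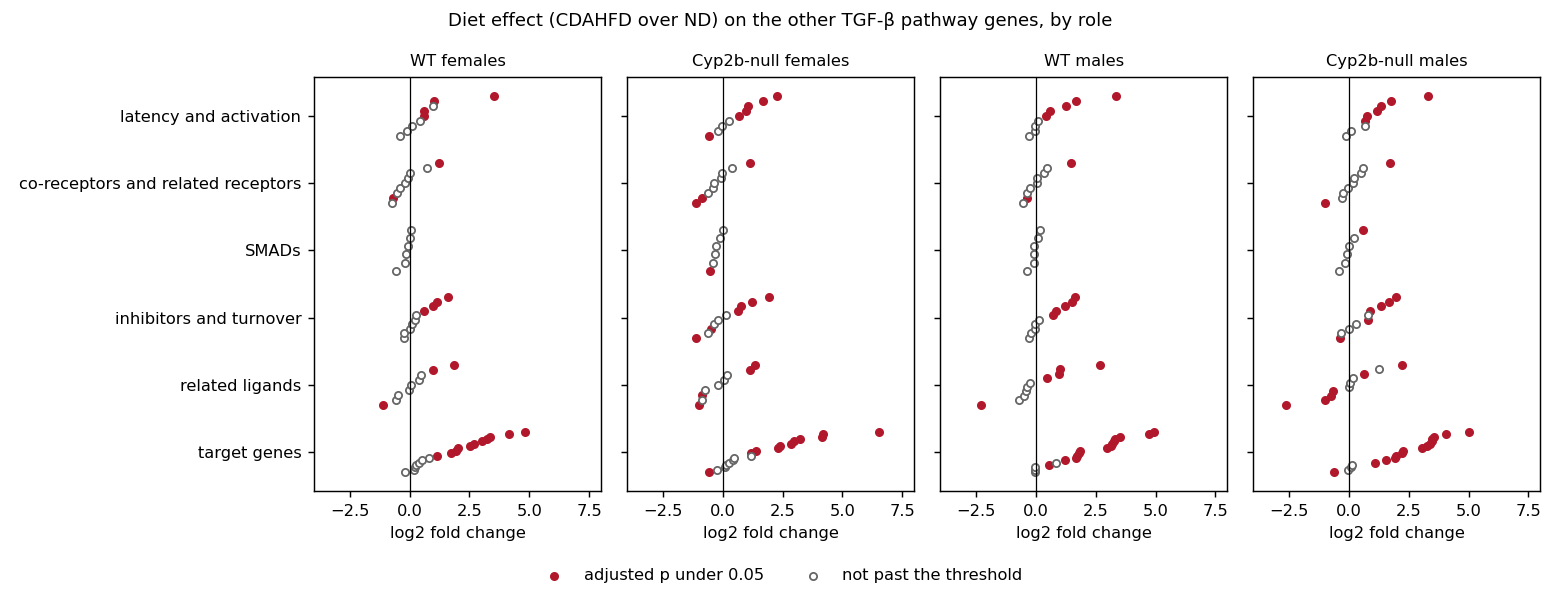
Log2 fold change on the CDAHFD against the ND (horizontal axis) of the other TGF-β pathway genes, 1 point per tested gene, in rows by role and panels by comparison. Filled points have an adjusted p under 0.05. The target genes reach the largest changes in all 4 panels, while the SMADs stay near 0.

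Markers of other liver cell types moved with the diet in the same libraries. The shares of all genes called, given with the pathway genes, stand beside the marker counts for diet too. The limit from the low-count filter applies to these counts as well. The 10 macrophage markers summed to 329 to 502 CPM in ND-fed and 875 to 1164 CPM in CDAHFD-fed WT females, 322 to 492 and 916 to 1406 CPM in Cyp2b-null females, 133 to 254 and 757 to 1598 CPM in WT males and 141 to 189 and 1060 to 1955 CPM in Cyp2b-null males. Of the 9 tested, 5, 5, 7 and 7 were higher and 2, 1, 1 and 1 lower in these 4 comparisons, and Trem2 had no counts in any group. The ND-fed sums, like the ND-fed levels of Tgfb1 and Thbs1, were lower in males than in females, in tables scaled separately. The 10 stellate cell and myofibroblast markers summed to 159 to 209 and 248 to 342 CPM on the ND and CDAHFD in WT females, 140 to 207 and 245 to 322 CPM in Cyp2b-null females, 128 to 138 and 218 to 309 CPM in WT males and 99.97 to 128 and 269.5 to 353 CPM in Cyp2b-null males. Of these 10, 4, 5, 5 and 8 were higher and 0 lower. The part of these cell types in the changes of the 9 genes was not tested.

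The 6 hepatocyte markers went the other way, with 5, 5, 6 and 4 of 6 called lower and 0 higher. The cholangiocyte sum was 20.4 to 62.0 CPM in ND-fed and 97.6 to 314 CPM in CDAHFD-fed libraries, and the neutrophil sum 0.436 to 4.61 and 7.28 to 24.7 CPM, with Ly6g at 0 in every group. Of these, 2, 3, 2 and 2 of 5 cholangiocyte and 3 of 3 neutrophil markers tested were higher in the 4 comparisons, and 0 were lower. In males the neutrophil markers passed the low-count filter only through CDAHFD-fed libraries, so their calls are not independent of that filter. Endothelial markers were called lower in 2, 3 and 1 of 7 and higher in 0, 0 and 1 of 7 in WT females, Cyp2b-null females and WT males, and higher in 4 and lower in 0 of 7 in Cyp2b-null males. Lymphocyte markers summed to at most 17.9 CPM, mesothelial markers to at most 13.3 CPM, platelet markers to at most 5.60 CPM and adipocyte markers to at most 0.678 CPM in any library. Only 1 or 2 genes of the lymphocyte, platelet and mesothelial lists passed the filter, and 1 of these was called, a lymphocyte marker that was higher in Cyp2b-null females. CDAHFD-fed Cyp2b-null female replicate 3, low for both receptors and Thbs1 and highest of its group for Tgfb1, had the highest macrophage sum (1406 CPM) and the lowest stellate sum (245 CPM) of its group.

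**Figure D5:**
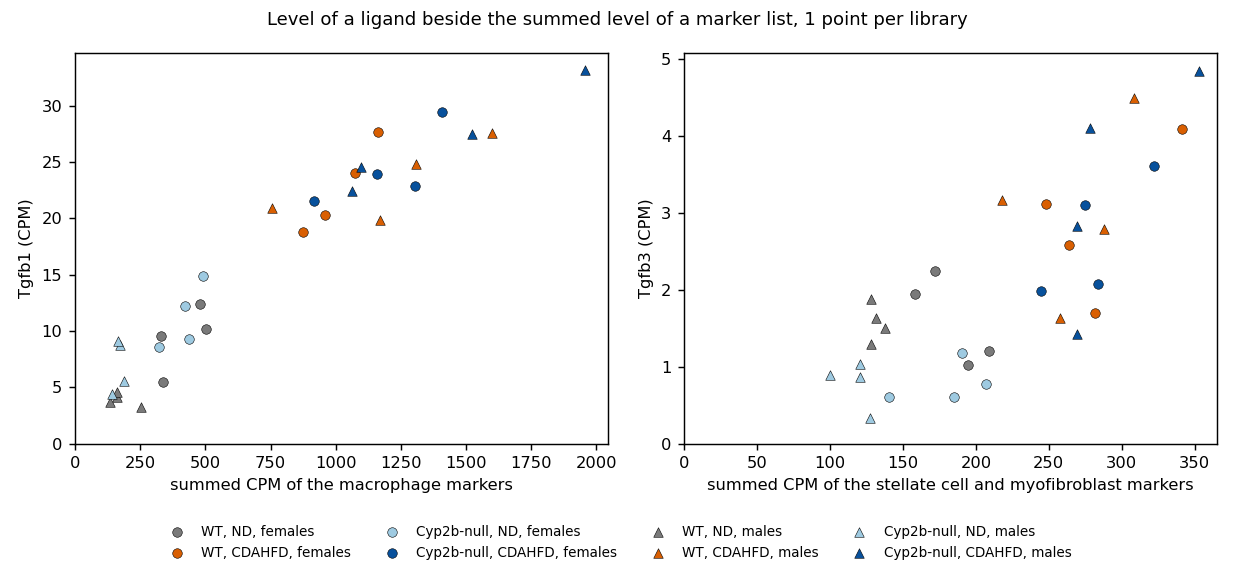
Level of Tgfb1 beside the summed level of 10 macrophage markers (left) and of Tgfb3 beside that of 10 stellate cell and myofibroblast markers (right), both in CPM on linear axes from 0, with 1 point per library, circles for females and triangles for males. The CDAHFD-fed libraries lie to the upper right of the ND-fed ones in the left panel, with no overlap on either axis.

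The genes whose level followed each of the 9 most closely over the 16 libraries of each sex are given as a description, with the smaller of the 2 Pearson correlations of log2 CPM. The points share libraries and the diet contrast. For Tgfb1 they were Itgb2 (0.937), a leukocyte integrin subunit, Lyz2 (0.936), a lysozyme of macrophages and neutrophils that is also in the macrophage list, and Hvcn1 (0.933), a proton channel gene. For Thbs1 they were Msn (0.921), Plekhm3 (0.904) and the AP-1 subunit gene Jun (0.887). For Tgfbr2 they were Cenpe (0.882), Cenpf (0.873), both of the kinetochore, and Osbpl3 (0.859), and for Tgfbr1 they were Cd2ap (0.857), Arf6 (0.830) and Zfp608 (0.827). For Tgfb2 they were Tmem8 (0.822), Tep1 (0.821) and Evl (0.819), and for Tgfb3 Mrvi1 (0.835), Endod1 (0.822) and Capn6 (0.813). Bambi was nearest to Tmed3 (0.782), Gm5864 (0.676) and P3h1 (0.659). The likeness was weaker for the SMADs, at 0.604 for Gm4674, 0.525 for Tnrc18 and 0.506 for Lrrc14 with Smad3, and 0.565 for Id1, 0.544 for Adrb3 and 0.544 for Tra2b with Smad7.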

How the data were processed

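Liver RNA was extracted with TRIzol, made into NEB Next Ultra libraries and sequenced as read pairs. The deposited values are raw counts per gene symbol, and per the submitters' processing notes the authors used FastQC and Trimmomatic on reads, GSNAP for alignment (genome GRCm38.p6) and Subread (featureCounts) for counting. Settings for strand and for reads that map more than once are not given in the sources used here. Symbols that the table held more than once or as dates are not among the genes described.

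Group and replicate were read from the titles of the samples. Genes were kept by edgeR's filterByExpr (minimum count 10, minimum total 15), counts were scaled by TMM and CPM were computed with the scaled library sizes. For each sex, 1 model without covariates held its 4 groups, and another held all 8 for sex differences, with the quasi-likelihood test of edgeR (4.0.16, under R 4.3.3). Benjamini-Hochberg adjustment covered every tested gene, and the SE came from the F statistic. Intervals use its degrees of freedom. The test was checked on simulated counts. Alternatives were DESeq2 (1.42.0), RLE scaling, library size alone, no filter, a filter of 1 CPM in 4 libraries, a replicate block, only the groups compared, dropping 1 library at a time, and dropping the pair absent from the heat maps.

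The labels do not say how libraries map to mice. The 9 genes and all lists were chosen with earlier results of these data known. Besides the 9, genes are named if called in 1 direction in all 4 diet comparisons (the first 3 of a role by mean absolute change with values), or called for genotype, with Acvrl1 and the 3 nearest genes of each. Genes called for a sex difference, the named genes of the cell type lists and those overlapping the 9 were named after their values were seen. The depth of 2906411 to 10166959 counts limits genes of few reads. Positions and promoters are from RefSeq, lengths from GENCODE vM21.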

Additional observations from a re-analysis of the deposited data

Results flagged for a closer look

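Of the 72 groups of 4 libraries (9 genes in 8 groups), 2 held a library far from the other 3 by Dixon's ratio, the gap to the nearest library divided by the range of the group, where chance flags about 1 in 20 groups. Thbs1 in ND-fed Cyp2b-null female replicate 3 was 7.41 CPM and the other 3 libraries 3.95 to 4.41 CPM, a ratio of 0.867. Tgfbr2 in CDAHFD-fed Cyp2b-null male replicate 2 was 37.2 CPM and the other 3 were 55.2 to 58.8 CPM, a ratio of 0.834.

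The diet effect differed between the sexes for 2 genes by the test of the difference itself. For Tgfb1 in WT mice the difference was 1.36 on the log2 scale (adjusted p = 0.026), with a rise of 1.24 in females and 2.58 in males, and every CDAHFD-fed library was above every ND-fed one in both sexes. For Thbs1 in Cyp2b-null mice it was 2.71 (adjusted p = 0.00888), with a rise of 1.01 in females and 3.69 in males. The male rise starts from an ND-fed group with 15 counts in all, and the CDAHFD-fed means were 9.67 CPM in females and 8.91 CPM in males.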

How the results depend on the processing

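Over 126 effects (9 genes in 14 comparisons) and 2860 alternative values, 20 effects were called. Of the 456 alternative values of these 20, 437 stayed called and 19 did not, and 14 values of other effects were newly called. No called value changed its sign. In the comparisons of genotype, 0 of 1627 alternative values were called. The number of the 9 genes called in a comparison stayed within 1.5 times in all alternatives except those in the next sentence. Leaving out 1 library in turn gave 2 to 6 called genes for diet in Cyp2b-null females (2 without CDAHFD-fed replicate 2) and 0 to 1 for the sex difference of the diet effect in WT mice, where Tgfb1 ranged from 1.18 to 1.53. In 40 uncalled effects, 110 alternative values had the other sign. Of the effects whose log2 change the text gives, those that changed sign over the fits without 1 library were Bambi in WT males (-0.021 to 0.27), Smad3 in WT males (-0.23 to 0.090) and Smad7 in WT males (-0.18 to 0.29) for diet, and Bambi for genotype on the CDAHFD in males (-0.33 to 0.048). Scaling by library size alone moved the median of all genes by 0.317 in WT females, 0.282 in Cyp2b-null females, 0.371 in WT males and 0.365 in Cyp2b-null males, and raised the share of calls that were higher from between 54.3% and 57.6% to between 85.8% and 89.8%. Under it, the diet effect of Smad3 was 0.22 in WT females and 0.38 in WT males, and that of Smad7 was 0.13 in WT females and 0.21 in Cyp2b-null males. Relative to that median, Smad3 was -0.098 and 0.012, Smad7 was -0.18 and -0.15, and Tgfb1 was 1.24, 1.08, 2.62 and 1.99 in WT females, Cyp2b-null females, WT males and Cyp2b-null males. Over all genes, the counts called for genotype (10 and 5 on the ND and 3 and 4 on the CDAHFD in females and males) were 122, 170, 69 and 51 without the low-count filter and 23, 72, 5 and 4 by DESeq2, and those for the interaction (0 and 1) were 46 and 95, and 2 and 3. On the ND in males the block gave 8, library size alone 3, only the groups compared 2 and the fits without 1 library 2 to 29. The sex differences of the genotype effect (1 and 1) gave 63 and 49 without the filter and 5 and 2 by DESeq2. Without 1 library, 84 to 261 genes were called for the sex difference of the diet effect in WT and 238 to 578 in Cyp2b-null mice, and DESeq2 called 220 in WT mice. Without the low-count filter, 469 genes in place of 136 were called for the sex difference in WT mice and 923 in place of 477 in Cyp2b-null mice, where 245 were called without the pair of libraries absent from the heat maps. The cause of these changes was not tested. Replicate numbers are not stated to pair mice, and 3 of 24 same-number pairs of libraries in females and 4 of 24 in males had deviations correlated by over 0.1. Among pairs with different numbers it was 6 of 72 in females and 13 of 72 in males. With the replicate block, the genes called for diet were 4, 4, 4 and 6, as without it. Depth limits Tgfb2 most, with 0 to 6 counts per ND-fed library in WT females and Cyp2b-null mice and 0 to 8 in WT males.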
